A study of Mus musculus with 6 samples.

Results

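Ddx25, Gpat3, Tmem108, Csrp2, Rnf157, Ttc30a1 and Pglyrp2 had some of the largest falls, among genes past the test, in Crebbp-deleted splenic B cells of Bcl2-transgenic mice. These 7 genes, with 13 probe sets, were taken from 18193 genes measured on Affymetrix mouse arrays, by their symbols in the array's annotation. All 6 mice carried a Bcl2 transgene, EµBcl2, whose Eµ enhancer is active in B lymphocytes; 3 were CBPF/F x EµBcl2 (Crebbp-floxed, the gene flanked by recombination sites) and 3 were CBPΔ/Δ x EµBcl2 (Crebbp-deleted). Each mouse gave 1 array of B cells, purified from thawed spleen cells by removing cells that bind beads against CD43. The agent that deleted Crebbp and the ages of the mice are not given in the sources used here. Levels are log2 intensities of a probe set, and a difference is the mean of the deleted samples less that of the floxed samples, so that −1 means a level 2-fold lower.

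The 7 genes were chosen from the values described here. They belong to the 12 largest falls among genes called by limma (adjusted p under 0.05) whose groups did not overlap, genes with only a provisional clone-type symbol left out. The other 5 of those 12, Sit1, Sox4, Tlr7, Tspan2 and Cers4, belong to other gene families and are left aside. At the edge of the choice, Cers4 was the last gene inside with a difference of −1.15, and Arhgap9 was the first outside with −1.12. All 7 therefore lie among the genes called lower in the deleted samples, 0.236% of all genes, and among those whose deleted samples all lie below the floxed ones, 10% of all genes. Neither count says anything beyond the choice, and the levels of the 7 genes are given as a description, without a test.

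The 7 genes have no known common task. Crebbp, also called CBP, is a histone acetyltransferase that transcription factors such as CREB recruit to promoters and enhancers, where acetylation accompanies active transcription. Ddx25 is an RNA helicase known from male germ cells, and Gpat3 makes lysophosphatidic acid in the first step of triglyceride synthesis. Tmem108 is a membrane protein studied in neurons, and Csrp2 is a LIM domain protein of the cytoskeleton and nucleus. Rnf157 is a ubiquitin ligase, Ttc30a1 belongs to the intraflagellar transport particle that builds cilia, and Pglyrp2 is an amidase that cuts bacterial peptidoglycan. None of them is a textbook marker of B cells.

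Because Crebbp is a partner of CREB, the promoters of the genes were searched for the cyclic AMP response element (CRE) that CREB binds. RefSeq windows of the 250 bases before a transcript's start, on build GRCm38.p6, were found for 6 of the 7 genes, 7 windows in all since Tmem108 has 2; Csrp2 is named only. The full palindrome TGACGTCA was in 0 of the 7 windows and in 1.55% of all 32851 windows. Its short form TGACG, or CGTCA on the other strand, which every full palindrome also holds, was in 3 of the 7 windows, those of Gpat3 and Pglyrp2 and the first of Tmem108, and in 17.8% of all windows. The second Tmem108 window, chr9:103692808-103693057, does not hold these letters. Those 3 windows are shown because they hold the motif; each runs 5′ to 3′ on the gene's strand and ends at the base before the start, with the short motif in capitals. They are chr5:100845979-100846228 on the plus strand for Gpat3, and chr9:103761838-103762087 for Tmem108 and chr17:32420976-32421225 for Pglyrp2 on the minus strand.
Gpat3: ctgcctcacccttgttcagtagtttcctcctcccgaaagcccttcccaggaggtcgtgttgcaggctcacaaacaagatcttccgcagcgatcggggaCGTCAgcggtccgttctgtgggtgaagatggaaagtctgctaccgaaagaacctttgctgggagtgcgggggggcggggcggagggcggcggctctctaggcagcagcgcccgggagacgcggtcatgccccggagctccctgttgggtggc
Tmem108: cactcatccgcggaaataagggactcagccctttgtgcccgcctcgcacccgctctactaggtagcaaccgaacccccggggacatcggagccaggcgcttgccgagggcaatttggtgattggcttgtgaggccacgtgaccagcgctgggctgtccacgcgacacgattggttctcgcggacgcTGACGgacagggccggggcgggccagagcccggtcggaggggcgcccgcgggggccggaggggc
Pglyrp2: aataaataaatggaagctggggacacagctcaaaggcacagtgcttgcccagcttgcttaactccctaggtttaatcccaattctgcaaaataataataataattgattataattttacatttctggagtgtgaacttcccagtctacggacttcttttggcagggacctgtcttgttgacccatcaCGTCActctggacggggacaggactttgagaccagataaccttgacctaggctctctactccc
The motif began 152 bases before the start in Gpat3, 64 in Tmem108 and 63 in Pglyrp2. The windows of Gpat3, Pglyrp2 and Rnf157 and the second of Tmem108 lie inside the genes' RefSeq records, which begin farther upstream. The first Tmem108 window overlaps the start of its gene's record, and only those of Ddx25 and Ttc30a1 lie wholly upstream. A CCAAT box (CCAAT, or ATTGG on the other strand) was in 6 of the 7 windows, against 33.8% of all windows, and a GC box (GGGCGG or CCGCCC) in 4, against 32.7%. Base composition ranged widely, from 43.2% G and C in Ttc30a1 and 44% in Pglyrp2 to 73.6% in Ddx25 and 77.2% in Rnf157, around a median of 52.4% over all windows. The short CRE motif holds the letters CG. These occurred 19 times in the Gpat3 window, 27 in the first of Tmem108 and 3 in that of Pglyrp2. The median over all windows was 6. G and C made up 64% of the Gpat3 window and 69.2% of the first Tmem108 window. The part of base composition in the motif matches was not tested. A match of letters is a description of the window, not evidence of binding.

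The labels were first set against Crebbp itself. At all 4 of its probe sets the 3 deleted samples lay below the 3 floxed samples, and the deleted group stood at 51% to 70.6% of the floxed level. Array medians lay between 4.27 and 4.29 on the log2 scale, and pairs of arrays within a group correlated at 0.988 to 0.994 over genes. All 11 measured B cell genes (such as Cd79a, Cd79b and Ms4a1) lay above the median of all probe set means, 4.29, in both groups. Of 13 measured plasma cell genes all 13 were higher in the deleted mean, with a median difference of 1.14; their summed intensity was 7836 to 8409 in the floxed samples and 14189 to 24122 in the deleted ones. Of 13 macrophage and monocyte genes all 13 were higher, with a median of 1.24 and summed intensities of 545 to 1732 and 1602 to 3727. Of the 11 B cell genes 10 were lower, with a median of −0.19 and summed intensities of 37329 to 43324 and 31316 to 32914. Among the 11 limma called 1 (9.09%, against 0.781% of all genes), Cd79a, with −1.11 (adjusted p = 0.0093). Fcer2a and Cr2 differed by −1.03 and −0.75 (limma adjusted p = 0.057 and 0.164). Without overlap 6 of the 11 lay lower (10% of all genes did) and 0 higher. Of 12 genes of precursor and transitional B cells 9 were lower, with a median of −0.13. Only 7 of the 12 had a floxed mean above the median of all probe set means. In this list limma called 1 (8.33%, against 0.781% of all genes), Sox4, with −1.35 (adjusted p = 0.042). Cd93 and Vpreb3 differed by −1.02 and −0.92 (limma adjusted p = 0.235 and 0.161). Without overlap 3 of the 12 lay lower (10% of all genes did) and 0 higher. The medians of the T cell, NK cell, neutrophil, erythroid, dendritic, platelet and stromal lists ran from −0.05 to 0.24. No probe set is at 0 on these arrays, and the part of these changes in the falls described here was not tested. In such bulk samples fewer cells of a type and less RNA per cell cannot be told apart.

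**Figure D1:**
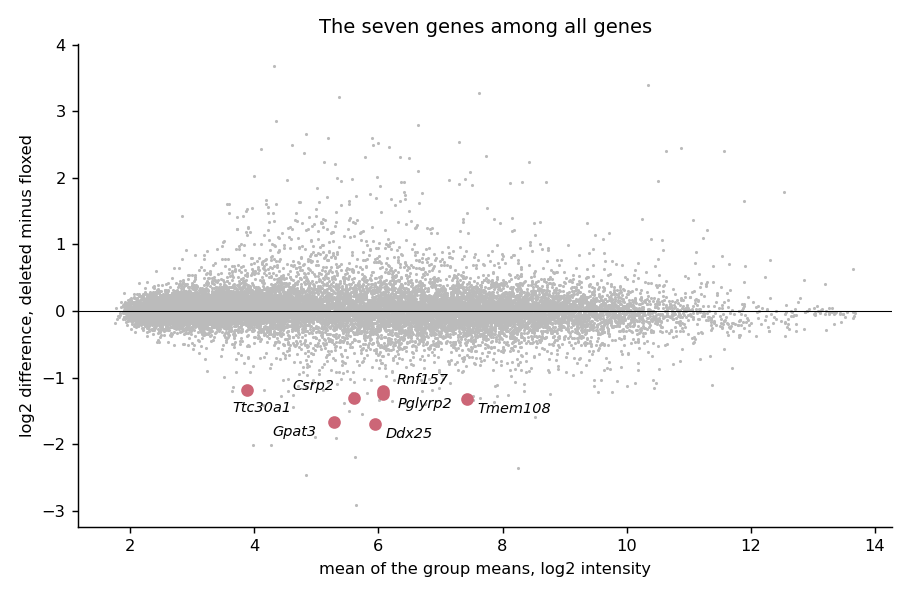
Difference between the groups (vertical axis, deleted minus floxed, log2) against the mean of the group means (horizontal axis, log2 intensity) for all 18193 genes in grey, 1 probe set per gene, with the 7 genes in red. The 7 genes lie between −1.69 and −1.19, below the bulk of genes at similar levels, and Ttc30a1 is the dimmest of them; the grey points below them are Sit1, which was among the 12 largest falls, and genes that did not meet the criteria.

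Ddx25, the RNA helicase that exports messenger RNA in germ cells, had the largest fall of the 7. Its probe set 1418263_at read 6.97, 6.57 and 6.81 in floxed replicates 1 to 3 and 5.23, 4.62 and 5.43 in deleted replicates 1 to 3. The lowest floxed sample stood 1.14 above the highest deleted one, the widest gap among the 7 genes, and deleted replicate 2 lay below the other deleted samples. The group means were 6.78 ± 0.20 and 5.09 ± 0.42 (SD, n = 3 each), so the deleted group was 3.23-fold lower (difference −1.69). Ddx25 was the only gene of the 7 whose samples spread more in the deleted than in the floxed group. The gene lies on chromosome 9 at 35541848 to 35558470 (GRCm38.p6).

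Gpat3, the acyltransferase of triglyceride synthesis, stood at 31.6% of its floxed level. The values were 6.40, 6.15 and 5.81 in the floxed samples and 4.40, 4.73 and 4.23 in the deleted samples, in the order of the replicates. The groups were apart by 1.08, with floxed replicate 1 highest and deleted replicate 3 lowest. The means were 6.12 ± 0.29 and 4.46 ± 0.26 (SD, n = 3 each), a difference of −1.66. Its 1 probe set, 1454799_at, had a deleted mean only just above the median of all probe sets, and the gene spans 100845665 to 100899102 on chromosome 5.

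Pglyrp2, the peptidoglycan amidase, had the tightest values. The floxed samples read 6.85, 6.60 and 6.66 and the deleted samples 5.45, 5.50 and 5.43. The deleted samples differed among themselves by less than 0.1 and the groups were 1.10 apart. The means were 6.70 ± 0.13 and 5.46 ± 0.03 (SD, n = 3 each), a 2.37-fold lower level (difference −1.24) at probe set 1420515_a_at. The gene lies on chromosome 17 at 32412459 to 32424219.

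Tmem108, a membrane protein of neuronal endosomes, was the brightest of the 7 by its representative probe set. Probe set 1454729_at read 8.18, 8.37 and 7.70 in the floxed samples and 6.77, 6.68 and 6.84 in the deleted samples. Floxed replicate 3 was the lowest of its group and still 0.86 above the highest deleted sample. The means were 8.08 ± 0.34 and 6.77 ± 0.08 (SD, n = 3 each), which is 2.49-fold lower (difference −1.31). The other probe sets of the gene were far dimmer. Set 1436916_at went from 2.74 to 2.31 without overlap (difference −0.43), and 1459210_at from 3.38 to 3.32 with overlapping groups (difference −0.06). Both lie below the median of all probe sets, and with the mean of the 3 sets in place of the brightest the difference of Tmem108 was −0.60. The gene spans 103482936 to 103761900 on chromosome 9, the longest span of the 7 at 278965 bases.

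Csrp2, the cysteine- and glycine-rich LIM protein, read 6.73, 6.16 and 5.87 in the floxed samples and 4.84, 5.09 and 4.93 in the deleted samples at 1420731_a_at. The floxed samples were spread out, with replicate 1 well above the other 2, while the deleted samples lay close together. The means were 6.25 ± 0.44 and 4.95 ± 0.13 (SD, n = 3 each), a 2.46-fold lower level (difference −1.30), and the gap between the groups was 0.77. The gene lies on chromosome 10 at 110920176 to 110939514.

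Rnf157, a RING-type ubiquitin ligase, was the gene with the most probe sets, 5. The representative 1434427_a_at read 6.43, 6.67 and 6.92 in the floxed samples and 5.69, 5.43 and 5.27 in the deleted samples. Floxed replicate 1 was the lowest of its group here, whereas it was the highest in Gpat3 and Csrp2. The means were 6.67 ± 0.24 and 5.47 ± 0.21 (SD, n = 3 each), a 2.31-fold lower level (difference −1.21). Sets 1440400_at, 1454953_at and 1434902_at also had no overlap between the groups, with differences of −1.003, −0.88 and −0.88. Set 1453720_at differed by −0.24 with overlapping groups, since deleted replicate 2, at 5.03, lay above all 3 floxed samples. The gene spans 116336345 to 116413391 on chromosome 11.

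Ttc30a1, a tetratricopeptide protein of intraflagellar transport, was the dimmest of the 7. Probe set 1424012_at read 4.57, 4.70 and 4.15 in the floxed samples and 3.23, 3.29 and 3.33 in the deleted samples. The groups were 0.82 apart, and all 3 deleted samples and floxed replicate 3 lay below the median of all probe sets, 4.29. The means were 4.47 ± 0.28 and 3.28 ± 0.05 (SD, n = 3 each), a difference of −1.19 or 2.28-fold. With 16 added to each intensity before the logarithm, which damps differences of dim probe sets, the difference was −0.58. The gene is short, 75979106 to 75981967 on chromosome 2, and lies beside its close relatives Ttc30a2 and Ttc30b; how far the probe set reads them was not analysed here.

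**Figure D2:**
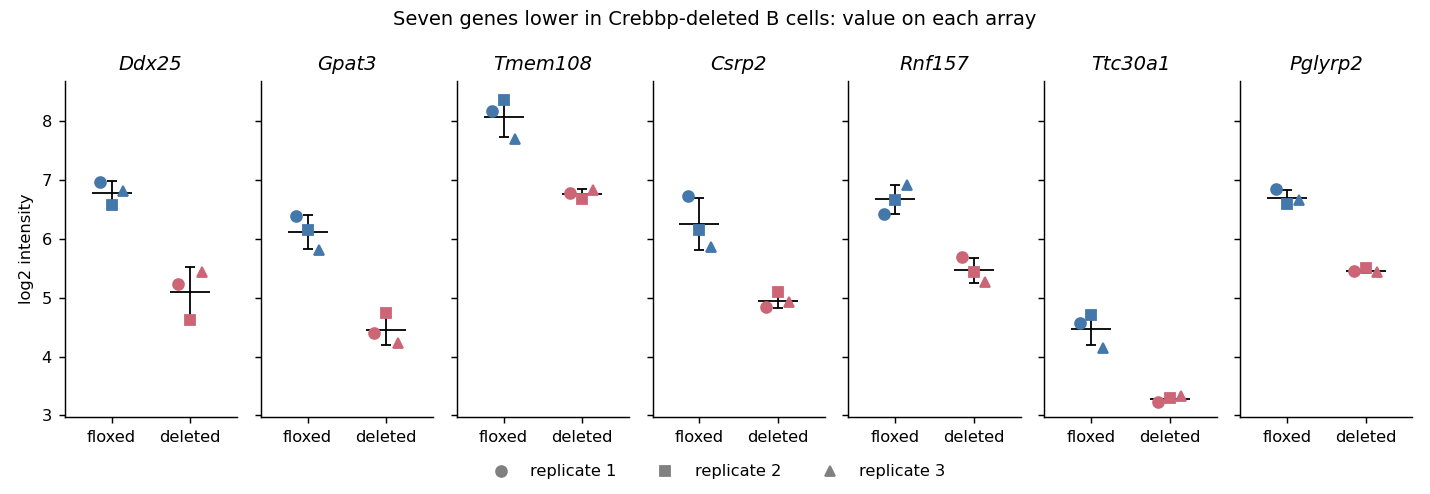
Log2 intensity (vertical axis) of the representative probe set of each of the 7 genes on each of the 6 arrays, floxed in blue and deleted in red, with a symbol for each replicate number. Horizontal bars and error bars are means ± SD of 3 samples. In each panel all deleted samples lie below all floxed samples, by at least 0.74.

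Over all 13 probe sets of the 7 genes, 13 had a lower mean in the deleted samples and 11 had no overlap between the groups, where 11.1% of all single-symbol probe sets lie lower without overlap. Over all single-symbol probe sets limma called 240, or 0.687%. The 13 sets read the same RNA from the same arrays that chose the genes and are no separate evidence. The 2 sets with overlap were 1 of the 3 sets of Tmem108 and 1 of the 5 sets of Rnf157. Ddx25, Gpat3, Csrp2, Ttc30a1 and Pglyrp2 had 1 set each.

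**Figure D3:**
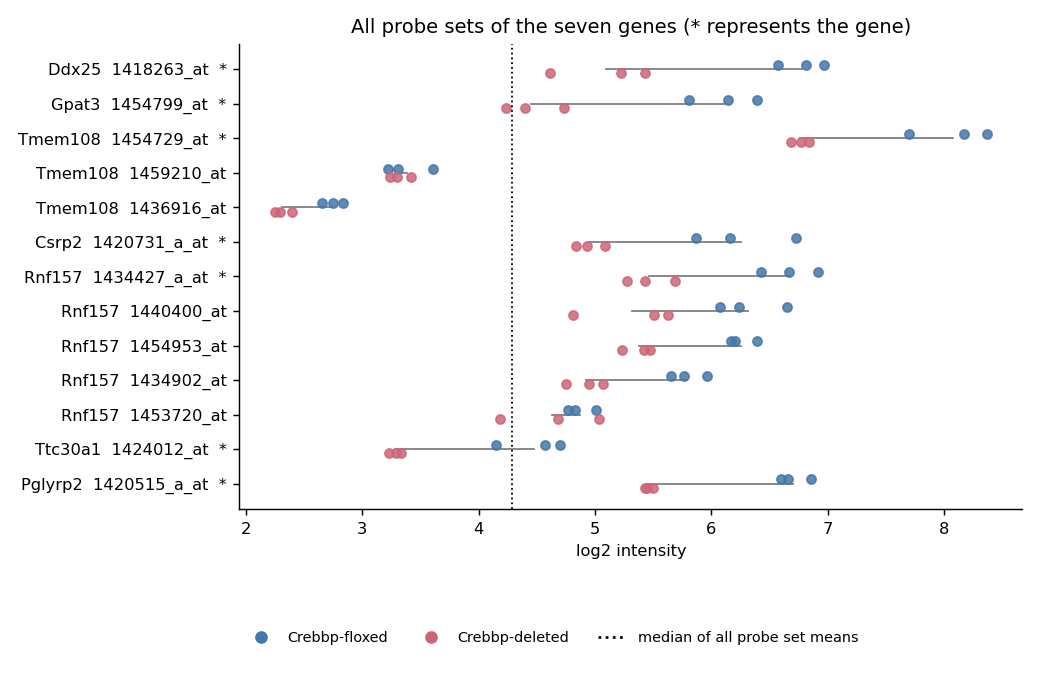
Log2 intensity (horizontal axis) of each of the 13 probe sets of the 7 genes on the 3 floxed (blue) and 3 deleted (red) arrays; grey lines join the group means, stars mark the set that represents a gene and the dotted line is the median of all probe set means, 4.29. The groups are apart in 11 sets and overlap in Tmem108 1459210_at and Rnf157 1453720_at.

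The genes differed in which samples were highest. Floxed replicate 1 had the highest floxed value in 4 of the 7 genes (Ddx25, Gpat3, Csrp2 and Pglyrp2), and floxed replicate 3 had the lowest in 4 (Gpat3, Tmem108, Csrp2 and Ttc30a1). In the deleted group no sample stood out, since each was the lowest in 2 or 3 genes. Per sample, the median of the 7 genes relative to their floxed means was 0.15, −0.0035 and −0.31 in the floxed samples and −1.31, −1.24 and −1.32 in the deleted samples. Across the 6 arrays Tmem108 and Ttc30a1 were the most alike pair (Pearson r = 0.997), and Csrp2 and Rnf157 the least alike (r = 0.80). These correlations are over 6 points that share the difference between the groups used to choose the genes.

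The sexes of the mice, read from Xist and Y-linked genes, were unequal: floxed replicate 1 and deleted replicates 1 and 3 were male and the others female. With sex as a term the differences were −1.86 for Ddx25, −1.66 for Gpat3, −1.36 for Tmem108, −1.39 for Csrp2, −1.15 for Rnf157, −1.21 for Ttc30a1 and −1.27 for Pglyrp2. Within males (1 floxed against 2 deleted) Csrp2 differed by −1.85 and within females (2 floxed against 1 deleted) by −0.92; for Gpat3 the values were −2.08 and −1.25. Ddx25 and Rnf157 went the other way, with −1.64 and −0.95 within males and −2.07 and −1.36 within females. Tmem108, Ttc30a1 and Pglyrp2 differed by −1.37, −1.29 and −1.42 within males and −1.35, −1.14 and −1.13 within females. With 1 sample on a side, whether the sexes differ was not tested.

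Genes of the families and pathways of the 7 were examined next, since the choice did not use them. Of 158 listed genes 151 were measured, and limma called 3 (1.99%, against 0.781% of all genes). The 3 were Kif3a and Ift57, which rose (0.544% of all genes did), and Slc15a3, which fell (0.236%); 34 of the 151 had an unadjusted p under 0.05 (22.5%, against 14.8% of all genes). The median difference of the 151 genes was −0.0036, beside 0.0135 over all genes. The groups of relatives thus did not follow the falls of the 7 genes as a whole, and no list fell by a median of more than 0.11.

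Among DEAD-box RNA helicases, the family of Ddx25, limma called 0 of 34 measured genes (against 0.781% of all genes). An unadjusted p under 0.05 was found for 6 (17.6%, against 14.8% of all genes), all lower. Without overlap between the groups 8 lay lower (10% of all genes did) and 0 higher. Of the 34 differences 28 were negative, beside 46.6% of all genes, but small, with a median of −0.096. The spliceosome helicase Ddx23 read 6.30, 5.90 and 6.17 in the floxed samples and 5.40, 5.55 and 5.13 in the deleted samples, without overlap (difference −0.76, limma adjusted p = 0.072). The nucleolar helicase Ddx54 had a difference of −0.48 (adjusted p = 0.073). Ddx19b, a mRNA export helicase and close relative of Ddx25, had one of −0.40 (adjusted p = 0.16). With the mean of a gene's probe sets Ddx23 differed by −0.50 and Ddx54 by −0.25. With array weights limma called both Ddx23 (adjusted p = 0.040) and Ddx54 (adjusted p = 0.048), and a trended and robust fit also called Ddx54 (adjusted p = 0.047).

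For triglyceride synthesis and storage, the pathway of Gpat3, limma called 0 of 26 genes (against 0.781% of all genes). An unadjusted p under 0.05 was found for 4 (15.4%, against 14.8% of all genes), all higher. Over the list 17 differences were positive, and the median was 0.11. Of the other acyltransferases of the first step, Gpat4 and Gpam were near their floxed levels. Their differences were 0.063 (limma adjusted p = 0.81) and −0.14 (adjusted p = 0.72). Gpat2, dim at a floxed mean of 3.37, had a difference of 0.22 (adjusted p = 0.74), with deleted replicate 2 highest at 4.19. Plin2, which coats lipid droplets, had a difference of 0.69 (adjusted p = 0.072), from 6.76 ± 0.23 to 7.45 ± 0.11 (SD, n = 3 each). The acyltransferase Agpat4 of the next step had one of 0.42 (adjusted p = 0.093), and Abhd5, which activates triglyceride breakdown, one of 0.82 (adjusted p = 0.14). With the mean of a gene's probe sets Abhd5 differed by 0.40 and Agpat4 by 0.24. Plin2 passed the test with array weights (adjusted p = 0.048) and without floxed replicate 3 (adjusted p = 0.038).

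For Tmem108 the list held endophilins, TrkB signalling genes and the WAVE complex, of which limma called 0 of 17 (against 0.781% of all genes). Of the 17, 4 (23.5%) had an unadjusted p under 0.05, against 14.8% of all genes. The median difference was 0.01. The endophilin B gene Sh3glb1 had a difference of 0.33 (limma adjusted p = 0.165), the neurotrophin receptor Ngfr one of −0.34 (adjusted p = 0.21) and the WAVE complex gene Nckap1 one of 0.56 (adjusted p = 0.21). The difference of Sh3glb1 was 0.12 with the mean of its probe sets and −0.0696 at the one with the largest variance, and that of Ngfr was −0.04 with the mean. Nckap1 differed by 0.34 without deleted replicate 3 and by 0.21 with 16 added to the intensities.

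Of the 25 measured LIM-only proteins and their partners, the family of Csrp2, limma called 0, against 0.781% of all genes. In either direction 7 (28%) had an unadjusted p under 0.05, against 14.8% of all genes. The nearest relative Csrp1 had a difference of −0.46 (limma adjusted p = 0.25) without overlap between the groups, and the muscle gene Csrp3 one of 0.009 (adjusted p = 0.98), whose sign varied with the scaling. Crip3 and Crip2, small LIM proteins, had differences of −0.34 (adjusted p = 0.117) and 0.55 (adjusted p = 0.133), and the transcriptional adaptor Lmo4 one of 0.38 (adjusted p = 0.167).

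Of 11 genes around Rnf157, its paralog Mgrn1 and partners of Fe65, limma called 0, against 0.781% of all genes. Among the 11 genes 2 (18.2%) had an unadjusted p under 0.05, against 14.8% of all genes. Mgrn1, the ubiquitin ligase mahogunin, had a difference of −0.14 (limma adjusted p = 0.545). The acetyltransferase gene Kat5 had a difference of −0.41 (adjusted p = 0.095), Apbb1, which encodes Fe65, one of 0.35 (adjusted p = 0.27) and the amyloid precursor-like gene Aplp2 one of 0.21 (adjusted p = 0.38). Apbb1 depended on the probe set: its difference was 0.81, past the test (adjusted p = 0.045), at the set with the largest variance, 0.58 (adjusted p = 0.062) with the mean of its sets, and 0.22 without floxed replicate 1.

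Intraflagellar transport, the machinery of Ttc30a1, was the list in which other genes rose. Of 29 measured members limma called 2 (6.9%, against 0.781% of all genes), both higher. At an unadjusted p under 0.05 there were 8 (27.6%, against 14.8% of all genes), 7 of them higher, and over the list 18 differences were positive with a median of 0.05. Kif3a, a motor subunit of kinesin-2 that moves the particles, read 4.65, 4.32 and 4.76 in the floxed samples and 5.56, 5.35 and 5.73 in the deleted samples. It rose from 4.58 ± 0.23 to 5.55 ± 0.19 (SD, n = 3 each), a difference of 0.97 ± 0.15 SE (limma adjusted p = 0.041). The 4 probe sets of Kif3a all had higher means, but they read the same RNA from the same arrays and are no separate evidence. Ift57, a subunit of the same particle as Ttc30a1, rose from 4.59 ± 0.11 to 5.20 ± 0.09 (difference 0.61 ± 0.10 SE, limma adjusted p = 0.048), while the dimmer of its 2 probe sets stood 0.10 lower. Ift57 rested on each sample: without floxed replicates 1, 2 and 3 its adjusted p was 0.172, 0.084 and 0.053, and without deleted replicates 1, 2 and 3 it was 0.172, 0.09 and 0.132. Kif3a kept its call without floxed replicate 3 (adjusted p = 0.036) and lost it without floxed replicates 1 and 2 (0.14 and 0.061) and deleted replicates 1, 2 and 3 (0.158, 0.071 and 0.117). With sex as a term the adjusted p was 0.092 for Kif3a and 0.105 for Ift57. The mean of the probe sets gave differences of 0.56 for Kif3a (adjusted p = 0.034) and 0.26 for Ift57 (adjusted p = 0.353). With 16 added to the intensities the values were 0.65 for Kif3a (adjusted p = 0.062) and 0.40 for Ift57 (adjusted p = 0.054).

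Of the further members at an unadjusted p under 0.05 only Ift140 was lower, and none passed the adjusted test. Tulp3, an adaptor for ciliary receptors, had a difference of 0.51 (limma adjusted p = 0.099), Ift140, of the retrograde particle, one of −0.74 (adjusted p = 0.155) and Cluap1, also called Ift38, one of 0.46 (adjusted p = 0.23). Ift74, Ift20 and Kifap3, chosen after their values were seen, had differences of 0.32, 0.44 and 0.35 (adjusted p = 0.24, 0.26 and 0.32). Tulp3 differed by 0.24 with the mean of its probe sets. The copies of Ttc30a1 gave no clear difference. Ttc30b read 3.97, 4.39 and 4.81 in the floxed samples and 4.83, 3.79 and 3.43 in the deleted samples, (difference −0.37, adjusted p = 0.695). Deleted replicates 2 and 3 lay below all floxed samples and deleted replicate 1 above them. Without floxed replicates 1 and 3 the difference of Ttc30b was −0.58 and −0.16, without deleted replicates 1 and 3 it was −0.78 and −0.08, and with array weights it was also −0.08. Ttc30a2 was dim, at a mean of 2.21 in the floxed group, and whether its probe set could show a fall was not tested. Its difference was 0.0465 (limma adjusted p = 0.93), and the sign was the opposite when its 2 probe sets were averaged.

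Among 9 measured genes of peptidoglycan recognition, the field of Pglyrp2, limma called 1 (11.1%, against 0.781% of all genes). An unadjusted p under 0.05 was found for 3 (33.3%, against 14.8% of all genes). Slc15a3, a transporter that carries muramyl dipeptide out of endosomes, read 6.14, 6.36 and 6.48 in the floxed samples and 5.60, 5.61 and 5.58 in the deleted samples. It fell from 6.33 ± 0.17 to 5.59 ± 0.01 (SD, n = 3 each; difference −0.73 ± 0.11 SE, limma adjusted p = 0.037). Without floxed replicates 1, 2 and 3 its adjusted p was 0.071, 0.072 and 0.053, and without deleted replicates 1, 2 and 3 it was 0.148, 0.103 and 0.109. The fit with sex as a term gave 0.081. Pglyrp1, a relative of Pglyrp2, read 6.81, 6.78 and 7.11 in the floxed samples and 6.45, 6.25 and 5.92 in the deleted samples. Its groups were apart, but it did not pass the test (difference −0.69, limma adjusted p = 0.107). The lysozyme genes Lyz1 and Lyz2, close copies that macrophages express strongly and whose probe sets can share signal, had differences of 1.17 (adjusted p = 0.33) and 1.01 (adjusted p = 0.42). Without floxed replicate 2 these were 0.67 and 0.51, and without deleted replicate 1 they were 0.76 and 0.55.

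**Figure D4:**
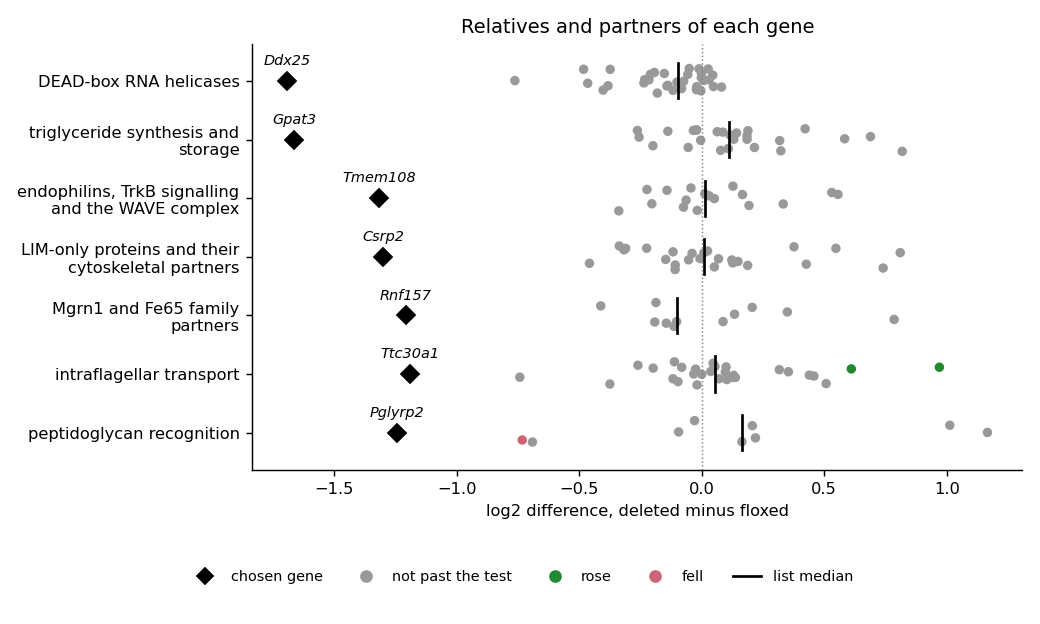
Log2 difference, deleted minus floxed (horizontal axis), of each measured gene in the 7 lists of relatives and partners; points are spread vertically for visibility, black bars are list medians and black diamonds the chosen genes. The diamonds lie at −1.69 to −1.19, to the left of all their relatives, of which Kif3a and Ift57 (green) rose and Slc15a3 (red) fell.

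The 7 genes lie on 6 chromosomes, and the Ddx25 and Tmem108 loci on chromosome 9 are far apart. Of the 70 measured genes nearest to them, 5 on each side, limma called 0 (against 0.781% of all genes). An unadjusted p under 0.05 was found for 9 (12.9%, against 14.8% of all genes). These 9 were 0 to 3 of the 10 neighbours of each gene, with 3 (30%) for Pglyrp2. The median difference of the neighbours was 0.04, with 39 higher and 31 lower. The nearest neighbours of Ddx25 were Cdon (0.26) and Pus3 (0.09), those of Gpat3 were Abraxas1 (−0.15) and Gm36793 (0.0045) and those of Rnf157 were Foxj1 (−0.11) and Qrich2 (0.12). Tmem108 lies between Bfsp2, with a difference of −0.56 and no overlap between the groups (limma adjusted p = 0.068), and Gm32743 (0.24). Csrp2 lies between E2f7 (−0.05) and Zdhhc17 (−0.25), Ttc30a1 between Ttc30a2 and Pde11a (0.13), and Pglyrp2 between A530088E08Rik, with −0.60 and no overlap (adjusted p = 0.068), and Cyp4f39 (0.048). Pawr, singled out after its values were seen, stood furthest from 0, 5 measured genes from Csrp2, at 2.50 higher in the deleted samples (adjusted p = 0.095). Nfe2l2, also singled out in this way, was the lowest, 5 measured genes from Ttc30a1, at −0.74 without overlap (limma adjusted p = 0.177). With array weights limma called 3 neighbours, among them Bfsp2 (adjusted p = 0.037) and A530088E08Rik (adjusted p = 0.040). Akap8l, 4 measured genes from Pglyrp2 and also singled out by its values, lay 0.45 higher without overlap. Its limma adjusted p with all samples was 0.068, like those of Bfsp2 and A530088E08Rik. The difference of Abraxas1 was −0.49 and that of Zdhhc17 −0.60 at the probe set with the largest variance. Cdon differed by 0.02 without floxed replicate 2 and by 0.53 without deleted replicate 2. The signs for Pus3, Gm36793 and Pde11a, all near 0, turned under other scalings or probe sets.

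**Figure D5:**
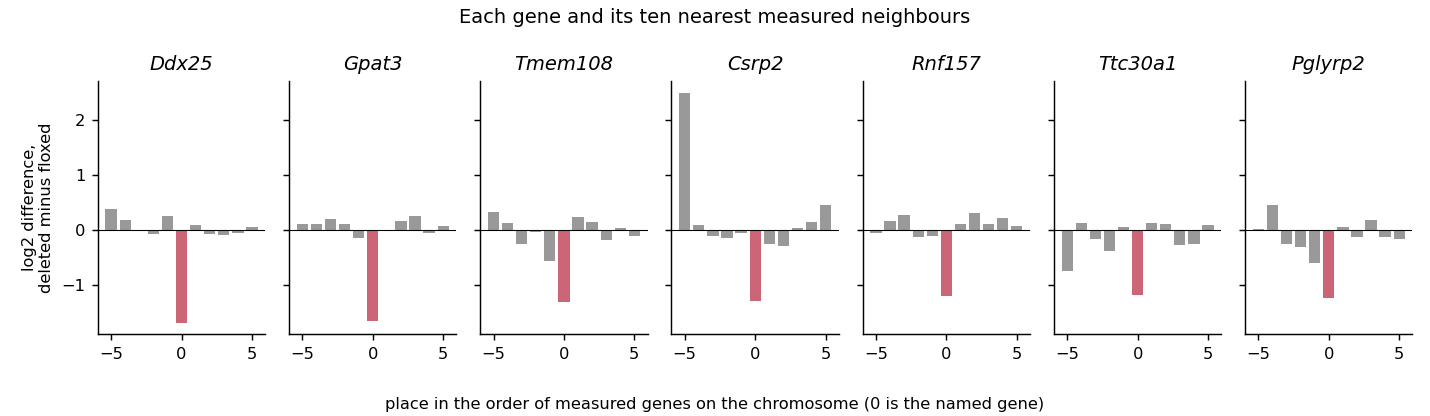
Log2 difference, deleted minus floxed (vertical axis), of each of the 7 genes (red) and its 5 nearest measured genes on each side (grey), by place in the gene order (horizontal axis). The red bars reach −1.19 to −1.69, below each of the 70 grey bars.

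Genes whose levels ran most like those of the 7 over the 6 arrays were sought among genes with a mean above the median of genes, the measure being Pearson's r. The closest to Ddx25 were Cd84 (r = 0.996), an adhesion receptor of the SLAM family, and Dnajb12 (0.995). For Gpat3 they were Armt1 (0.996) and Pak1ip1 (0.995), for Tmem108 Clns1a (0.994) and the B lymphocyte surface gene Ly6d (0.994), and for Csrp2 Rnf122 (0.998), a ubiquitin ligase, and Ccdc71 (0.997). Rnf157 was most like Vps54 (0.997) and the B cell signalling gene Themis2 (0.997). Ttc30a1 was most like Tmem108 itself (0.997) and the ubiquitin ligase Nedd4l (0.992), and Pglyrp2 like the inositol kinase Itpkb (0.999) and the presenilin Psen2 (0.998). In each of these genes the groups did not overlap and the deleted group was the lower, as follows from a pattern like that of a chosen gene. The size did not follow: Clns1a differed by −0.15 and Vps54 by −0.17, whereas Rnf122 differed by −1.02.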

How the data were processed

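RNA of splenic B cells from 6 mice was hybridised to 1 array per mouse. The deposited values are intensities, made with RMA per the submitters' processing notes, which give no version. They range from 2.96 to 17022 and were therefore taken as linear, although RMA output is commonly in log2. They were log2-transformed and not normalized again. Arrays have no read depth, so the number of arrays limits precision. Of 45101 probe sets 34945 had 1 gene symbol, and 64 controls, 932 with several symbols and 9160 with none were left out. A RefSeq table of GRCm38.p6 held 34741 of the Entrez IDs and changed 0 symbols. Each of 18193 genes was represented by its probe set with the highest mean over the 6 samples, with no filter on dim sets.

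The comparison used lmFit and eBayes of limma 3.58.1 under R 4.3.3, two-sided and without covariates, with Benjamini-Hochberg adjustment over all genes and a threshold of 0.05. The procedure was tested on simulated data. The members, lists and tests were chosen with earlier results of these data known, so no list is independent support. Genes named are Crebbp, the 7 genes, and of each list of relatives the called genes, up to 3 others with the smallest p and the nearest paralogs. The nearest measured neighbour on each side, the 2 most alike genes and the gene just outside the 12 largest falls were also named. Alternatives covered scaling, dim genes, probe set choice, limma settings, an offset of 16, replicate number and sex as terms, and leaving out each sample; fits within each sex were added after seeing the data. Some listed genes had no single-symbol probe set and were not analysed here. Plots used matplotlib 3.10.9 (Python 3.11.15).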

Additional observations from a re-analysis of the deposited data

How the results depend on the processing

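The differences of the 7 genes kept their sign in all 125 values under the alternatives, which the absence of overlap between the groups largely fixes, and 15 of them moved by more than the pooled SD. The median difference was −1.003 with 16 added to the intensities and ran from −1.49 to −1.27 when 1 sample was left out. The count of genes called, 142 with all samples, was 222 with a trended and robust limma fit, 291 with array weights, 37 with sex as a term and 0 to 226 without 1 sample; the 0 came without floxed replicate 1, with 1990 genes at an unadjusted p under 0.05. Of probe sets, 240 were called with all samples, 446 with array weights, 144 with 16 added, 25 with sex as a term and 0 to 291 without 1 sample. Of related genes, 3 were called with all samples, 6 with array weights, 1 with 16 added, 0 with sex as a term (33 at an unadjusted p under 0.05) and 0 to 2 without 1 sample. Of neighbours, limma called 0 with all samples, 3 with array weights, 1 with 16 added and 0 to 1 without 1 sample. Under the replicate block 126 genes, 139 probe sets, 1 related gene and 1 neighbour were called. Same-numbered samples' deviations from the group means correlated at 0.033, 0.104 and 0.0059. The labels used here do not say whether the replicate numbers pair the mice, and with 3 arrays per group these values cannot decide it.

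Signs turned for genes that no alternative run here called, most of them near 0 (Sh3glb1, at 0.33, was not). With quantile scaling Csrp3 was at −0.011 and Gm36793 at −0.0028, with array medians subtracted Gm36793 was at −0.0007, with array weights Csrp3 was at −0.0048, and with sex as a term Csrp3 was at −0.015, Gm36793 at −0.0014 and Ttc30a2 at −0.038. With the mean of probe sets Ttc30a2 was at −0.058 and Pus3 at −0.14. With the probe set of largest variance Pus3 was at −0.15, Gpat4 at −0.021, Pde11a at −0.12 and Sh3glb1 at −0.0696. Without 1 sample the differences ran from −0.042 to 0.049 for Csrp3, −0.22 to 0.093 for E2f7, −0.015 to 0.041 for Gm36793, −0.22 to 0.0044 for Gpam, −0.096 to 0.21 for Pus3, −0.0603 to 0.30 for Qrich2 and −0.11 to 0.14 for Ttc30a2. The cause of these changes was not tested. Under the filter on dim genes, Ttc30a1 and the dim relatives and neighbours Crip3, Csrp3, Cyp4f39, E2f7, Foxj1, Gm32743, Gm36793, Nckap1, Pde11a, Qrich2, Ttc30a2 and Ttc30b were left out and have no value. The table has no detection calls, so signal over background is not known for any probe set.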
